A study of Mus musculus with 18 samples.

Results

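Loss of TIMP3 was combined here with ureteral obstruction, and the quantity described is the difference between the obstruction responses of 2 genotypes: the TIMP3-/- response (UUO minus sham) minus the WT response (UUO minus sham), per gene, on the log2 scale. The calculation used 12 of the 18 arrays of the series, 3 in each of 4 groups, and all 22626 non-control probe sets of the array, which stood for 12393 named genes. The groups were TIMP3-/- kidneys 3 days after unilateral ureteral obstruction (UUO, the tying off of 1 ureter), TIMP3-/- kidneys 3 days after a sham operation, WT kidneys 3 days after UUO and WT kidneys 3 days after a sham operation. All mice were C57BL/6, the right ureter was the one tied, and frozen kidneys of the operated side gave the RNA. TIMP2-/- kidneys, with 3 UUO and 3 sham arrays, entered the same model and served for 1 comparison between the knockouts. The labels call the samples biological replicates, and they give no age, no sex and no detail of how the knockout alleles were made. An array is named below by its group and replicate number. A negative response difference means that the UUO-minus-sham value was lower in TIMP3-/- than in WT kidneys, and a positive one that it was higher.

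TIMP3 is one of the tissue inhibitors of metalloproteinases, secreted proteins that block the enzymes which cut extracellular matrix and cell-surface proteins. Unlike the other members of its family it is bound to the matrix, and besides matrix metalloproteinases it inhibits ADAM17, the protease that releases TNF and several EGF receptor ligands from the cell surface. Obstruction of the ureter injures the tubules, brings in inflammatory cells and leads to fibrosis of the space between tubules, while the proximal tubule, the segment that reabsorbs most of the filtrate, loses its transporters and metabolic enzymes. Because bulk kidney tissue was measured, fewer cells of a type and less RNA per cell cannot be told apart.

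Timp3 itself checked the labels, through the 1 of its 4 probe sets with the highest mean. This probe set read 35.2, 40.5 and 35.1 intensity units on the TIMP3-/- UUO arrays and 60.8, 41.7 and 45.1 on the TIMP3-/- sham arrays, against 5274, 5056 and 4260 on the WT UUO arrays and 6198, 7263 and 9040 on the WT sham arrays. The 6 knockout values lay below the 25th percentile of their arrays, which was between 57.1 and 64.2. Kidney markers were high on all 12 arrays: the proximal tubule list, for example, averaged at least 11.06 on the log2 scale on each of them.

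Of the 12 arrays, 3 were set apart on their values, without a test. They were WT UUO 2, TIMP3-/- UUO 2 and WT sham 3. WT UUO 2 carried liver transcripts: albumin (Alb) read 28106 on it, against at most 679.3 on the other 11 arrays, and the mean log2 intensity of 21 hepatocyte genes was 11.91 on it and between 6.6 and 7.9 on the others. Malat1, a long non-coding RNA retained in the nucleus, read 26755 on TIMP3-/- UUO 2, against 8637 and 8189 on the other TIMP3-/- UUO arrays. On WT sham 3 it read 4410, against 361.3 and 963.6 on the other WT sham arrays, and on TIMP3-/- sham 1 it read 5399, against 1943 and 1937 on its replicates. All TIMP3-/- UUO arrays were above all WT UUO arrays, which read between 700.7 and 1566. The Y-linked gene Eif2s3y followed the same arrays, with 1101 on TIMP3-/- UUO 2 and 288.8 on WT sham 3, and Xist, the RNA of the inactive X chromosome, stayed between 35.4 and 88.6 on all 12. Alb and Malat1 were chosen after their values were seen. The results below are therefore also given without WT UUO 2, or without all 3 arrays set apart. TIMP3-/- sham 1 was kept, although its Malat1 value also lay above those of its replicates.

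No gene passed the test of the response difference. With limma and Benjamini-Hochberg adjustment, 0 of 22626 probe sets and 0 of 12393 genes (0%) had an adjusted p under 0.05, and the smallest adjusted p was 0.167. At an unadjusted p under 0.05 there were 5852 probe sets (25.9%) and 3330 genes (26.9%), of which 1933 (15.6%) had a negative difference and 1397 (11.3%) a positive one. The plot of p-values shows their excess at the low end, and 6325 probe sets had an adjusted p under 0.2. Weighting arrays by their agreement with the model instead gave 6008 genes that passed, but the weights did not converge and rested on 1 WT UUO array. The values below are therefore estimates with their standard errors (SE), and none of them is a called change. The median SE of the difference was 0.253 on the log2 scale.

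**Figure D1:**
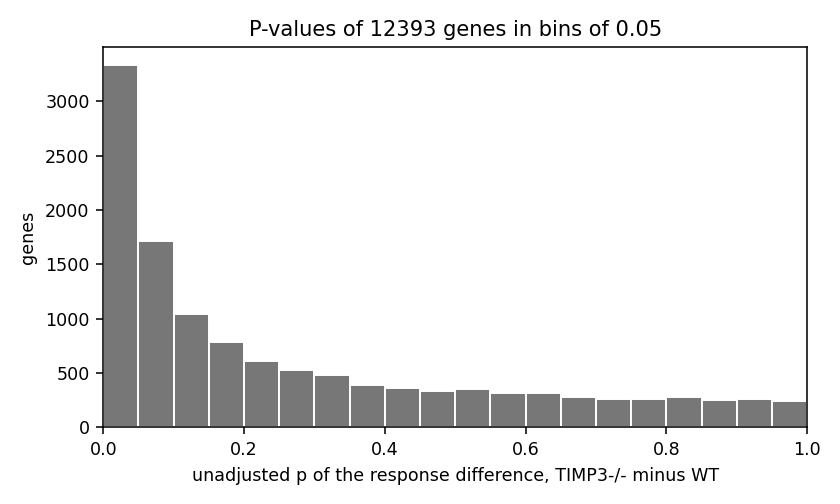
Number of genes (y axis) by unadjusted p of the response difference, TIMP3-/- minus WT, in bins of 0.05 (x axis). The lowest bin holds 3330 of 12393 genes and the highest holds 242.

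Which arrays entered the fit moved these counts more than 1.5 times. With the 12 arrays of the 4 groups alone, 2466 genes had an unadjusted p under 0.05, 1202 with a negative and 1264 with a positive difference, so that the negative excess of the 18-array model was absent. Leaving out TIMP3-/- UUO 2 left 1478 genes at an unadjusted p under 0.05, leaving out WT sham 3 left 1575, leaving out WT UUO 3 left 1679, leaving out TIMP3-/- sham 2 left 1738 and leaving out TIMP3-/- sham 3 left 1986. Without all 3 arrays set apart there were 1955 such genes (15.8%), 1205 with a negative and 750 with a positive difference, and 0 genes passed. Other omissions raised the count. Leaving out TIMP3-/- UUO 3 gave 4979 such genes and 25 that passed. Leaving out TIMP3-/- sham 1 gave 4481 and 0 that passed, and leaving out WT UUO 2 gave 4284 and 1 that passed.

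The responses to obstruction had largely the same direction in both genotypes and were larger in TIMP3-/- kidneys. Across the 12393 genes, the TIMP3-/- and WT responses, which share no array, had a Pearson correlation of 0.786, a description across genes that are not independent of each other. The SD of the response over genes was 1.07 in TIMP3-/- kidneys, 0.728 in TIMP2-/- kidneys and 0.783 in WT kidneys. The median absolute response was 0.584, 0.387 and 0.342 in the same order of genotypes. For 8852 genes (71.4%) the absolute response was larger in TIMP3-/- than in WT kidneys, and without the 3 arrays it was larger for 9509 genes (76.7%), with a correlation of 0.871.

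**Figure D2:**
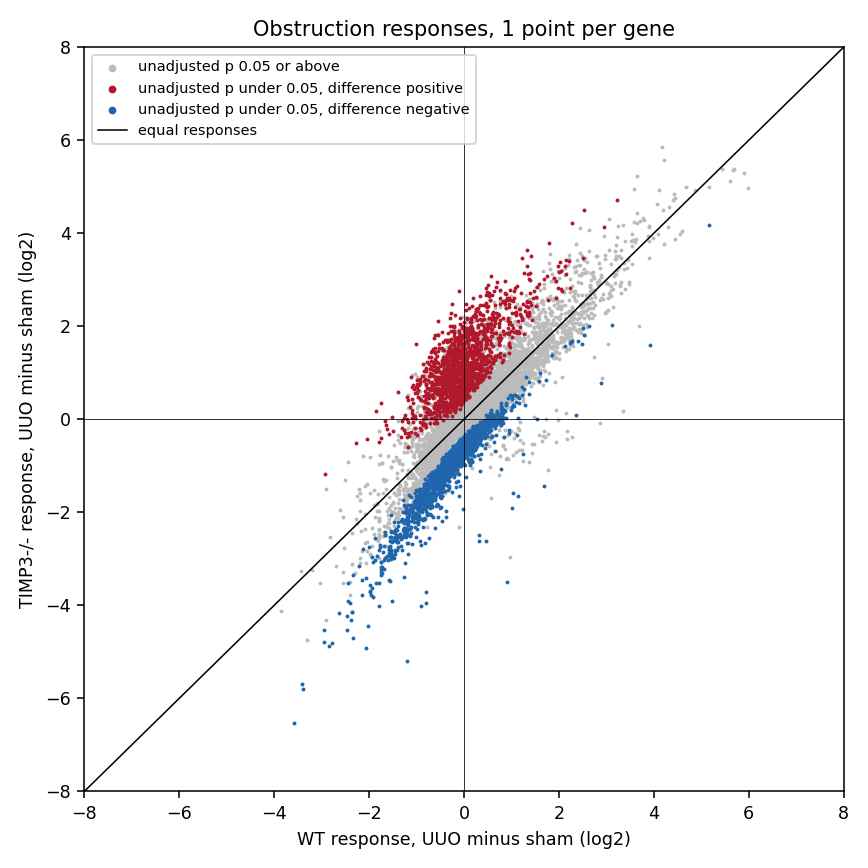
Fitted response to obstruction (UUO minus sham, log2) in TIMP3-/- kidneys (y axis) against that in WT kidneys (x axis), 1 point per gene. Blue points have a negative and red points a positive response difference at an unadjusted p under 0.05. Blue points lie mostly at the lower left, where both responses are negative, and the line marks equal responses.

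The 2 directions had different make-ups. Among the 1933 genes with a negative difference at an unadjusted p under 0.05, both responses were negative for 1331, and for 515 the response was negative in TIMP3-/- and positive in WT kidneys. Their median response was −0.85 in TIMP3-/- and −0.21 in WT kidneys. The TIMP3-/- level of these genes differed from the WT level by a median of −0.42 after UUO and 0.25 after sham. Among the 1397 genes with a positive difference, 598 had a positive response in both genotypes, and 758 had a positive response in TIMP3-/- and a negative one in WT kidneys. The median response of these 1397 was 1.11 in TIMP3-/- and −0.08 in WT kidneys, and their TIMP3-/- level was higher than the WT level by a median of 0.58 after UUO and differed from it by −0.54 after sham. Over all genes the median difference was −0.18, and 8142 genes (65.7%) had a negative estimate. Of all 12393 genes, both responses were negative for 5780 and positive for 3816. For 1487 the response was negative in TIMP3-/- and positive in WT kidneys, and for 1310 the reverse. A negative difference cannot occur with a positive TIMP3-/- and a negative WT response, nor a positive difference with the reverse.

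Enzymes of amino acid and pyrimidine catabolism, which in the kidney belong mainly to the proximal tubule, had the lowest median response difference of the kidney lists. Of 17 measured genes, 14 had a negative difference at an unadjusted p under 0.05 and 0 a positive one, against 15.6% and 11.3% of all genes. The list's median difference was −1.25, with a median response of −2.53 in TIMP3-/-, −1.27 in TIMP2-/- and −1.31 in WT kidneys. After UUO, 9 of the 17 read lower on every TIMP3-/- array than on every WT array, which was true of 795 of all genes (6.41%). Without the 3 arrays, 13 of the 17 had a negative difference at an unadjusted p under 0.05 and the median was −1.08.

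Hpd, 4-hydroxyphenylpyruvate dioxygenase of tyrosine breakdown, had the largest difference of the list. It read 74.2, 55.1 and 100.1 on the TIMP3-/- UUO arrays and 2384, 3444 and 2471 on the TIMP3-/- sham arrays, against 242.9, 2616 and 899 on the WT UUO arrays and 2669, 2405 and 1110 on the WT sham arrays. The highest TIMP3-/- UUO value was below the lowest WT UUO value, and the highest WT UUO value was that of the array with liver transcripts. The difference was −3.99 ± 0.86 (SE) with all arrays, −3.16 without WT UUO 2 and −2.54 without the 3 arrays. Dpys, dihydropyrimidinase of pyrimidine breakdown, read 47.4, 46.9 and 60.7 on TIMP3-/- UUO arrays and 712.2, 939.7 and 841.1 on TIMP3-/- sham arrays, against 98.3, 155.7 and 258.4 on WT UUO arrays and 746.6, 583 and 376 on WT sham arrays. Here too the UUO groups did not overlap, and the difference was −2.22 ± 0.47. Its 3 probe sets were all negative, between −2.22 and −0.59, and −0.59 was the value without suffixed probe sets. Upb1, which acts after Dpys in the same pathway, had a difference of −1.47 ± 0.36. Prodh2, hydroxyproline dehydrogenase, read 154.1, 139 and 315.5 on TIMP3-/- UUO arrays and 927, 1438 and 1256 on TIMP3-/- sham arrays, against 459, 435.7 and 627.1 on WT UUO arrays and 945.7, 990.3 and 731.2 on WT sham arrays. Its difference was −1.83 ± 0.39. The other 10 of the 14 had differences between −2.92 (Bhmt) and −0.44 (Qdpr), and Gatm, Kynu and Glyat lay between 0.02 and 0.35.

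Promoters of genes with a negative difference are shown because many enzymes of this and the next list had negative values together. The windows are RefSeq sequences of build GRCm38.p6, from 250 bases before to 50 bases after the gene's start, written 5′ to 3′ on the gene's strand. Hpd lies at chr5:123182674-123182973 on the minus strand, Prodh2 at chr7:30493408-30493707 on the plus strand, Cyp2d26 at chr15:82794196-82794495 on the minus strand and Gpt2 at chr8:85492326-85492625 on the plus strand. Capitals mark matches, on either strand, to the HNF1 core GTTAAT in Prodh2 and Cyp2d26 and to the AP-1 site TGANTCA in Hpd. The HNF4 core AAAGTCC and the CArG box were also searched and had no match in these 4 windows, and Gpt2 had no match to any of the 4 motifs.
Hpd: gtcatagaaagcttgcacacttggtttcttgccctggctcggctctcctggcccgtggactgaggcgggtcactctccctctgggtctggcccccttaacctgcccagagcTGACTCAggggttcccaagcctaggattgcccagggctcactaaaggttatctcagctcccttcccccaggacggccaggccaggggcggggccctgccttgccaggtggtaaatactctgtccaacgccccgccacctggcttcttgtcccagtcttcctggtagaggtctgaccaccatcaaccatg
Prodh2: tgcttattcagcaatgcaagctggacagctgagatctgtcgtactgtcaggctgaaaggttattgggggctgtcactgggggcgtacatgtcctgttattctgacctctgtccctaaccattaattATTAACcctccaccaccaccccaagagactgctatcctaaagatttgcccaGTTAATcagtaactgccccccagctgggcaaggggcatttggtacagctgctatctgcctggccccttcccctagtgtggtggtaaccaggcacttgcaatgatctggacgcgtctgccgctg
Cyp2d26: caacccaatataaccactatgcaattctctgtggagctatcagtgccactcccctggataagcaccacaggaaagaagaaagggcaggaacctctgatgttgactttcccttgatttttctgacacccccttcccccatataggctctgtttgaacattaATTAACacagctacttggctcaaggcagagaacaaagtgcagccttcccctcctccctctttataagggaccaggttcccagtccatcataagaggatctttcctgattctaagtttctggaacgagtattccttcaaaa
Gpt2: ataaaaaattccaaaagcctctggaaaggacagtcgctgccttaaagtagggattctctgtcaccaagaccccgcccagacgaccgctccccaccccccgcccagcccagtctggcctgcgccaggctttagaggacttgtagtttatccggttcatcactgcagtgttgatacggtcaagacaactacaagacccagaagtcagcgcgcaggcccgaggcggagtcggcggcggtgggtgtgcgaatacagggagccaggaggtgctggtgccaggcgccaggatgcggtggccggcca
HNF1 and HNF4 are transcription factors of the tubular epithelium, AP-1 is the factor formed by FOS and JUN proteins, and the CArG box is bound by SRF. The HNF1 core was present in the windows of 2 of the 15 catabolic genes with a RefSeq promoter and of 6 of 17 proximal tubule genes (35.3%), against 7.2% of 27025 promoters, 1 per gene. The HNF4 core was present in 1 and 2 of the same lists, against 4.25% of all promoters, and the AP-1 site in 3 and 1, against 7.93%. Among the 9 P450 and detoxification genes with a RefSeq promoter, the HNF1 core was present in 1, the AP-1 site in 1 and the HNF4 core in 0. The CArG box was present in none of these 3 lists, against 1.57%. A match is a string of letters and not a measured site of binding.

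Cytochrome P450 and detoxification enzymes, which handle drugs, fatty acids and steroids, followed the same direction. Of 19 measured, 8 had a negative difference at an unadjusted p under 0.05 and 0 a positive one, and 18 had a negative estimate. The median difference was −0.81, with a median response of −2.05 in TIMP3-/- and −1.38 in WT kidneys. After UUO, 7 of the 19 were lower on every TIMP3-/- array than on every WT array, against 6.41% of all genes. Without WT UUO 2 the list had 13 members at an unadjusted p under 0.05, without the 3 arrays 12 and without TIMP3-/- UUO 2 6, all of them negative. Over all 12393 genes, 2667, 1205 and 761 were negative at that p in these settings, against 1933 (15.6%) with all arrays. A negative estimate of any p was found for 65.7% of all genes. Cyp2d26, a member of the P450 family, read 173.1, 159.8 and 344.3 on TIMP3-/- UUO arrays and 5120, 7769 and 6663 on TIMP3-/- sham arrays, against 940.7, 1214 and 2404 on WT UUO arrays and 5874, 5807 and 5849 on WT sham arrays. The sham groups overlapped and the UUO groups did not, and the difference was −2.86 ± 0.55, at an unadjusted p of 9.62e-05. Ces1d, a carboxylesterase, had a difference of −1.58 ± 0.54, Gstt2, a glutathione transferase, one of −1.01 ± 0.35, and Cyp2e1 one of −0.72 ± 0.23. Further P450 genes, chosen after their values were seen, were Cyp2d9 at −2.43 ± 0.54 and Cyp2c23 at −1.68 ± 0.37.

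Gpt2, mitochondrial alanine aminotransferase, was on no list and was chosen after its values were seen. It read 626.8, 640.9 and 829.7 on TIMP3-/- UUO arrays and 1025, 1074 and 1076 on TIMP3-/- sham arrays, against 1216, 1058 and 941.5 on WT UUO arrays and 884.1, 762.4 and 712 on WT sham arrays. Every TIMP3-/- UUO array lay below every TIMP3-/- sham array, whereas every WT UUO array lay above every WT sham array. The difference was −1.06 ± 0.19, at an unadjusted p of 3.94e-05, and all 3 of its probe sets were negative, between −1.06 and −0.89. Slc38a3, a glutamine transporter of the proximal tubule, was also chosen after its values were seen and had a difference of −1.72 ± 0.36. Gys2, glycogen synthase 2, chosen in the same way, had one of −1.44 ± 0.3.

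**Figure D3:**
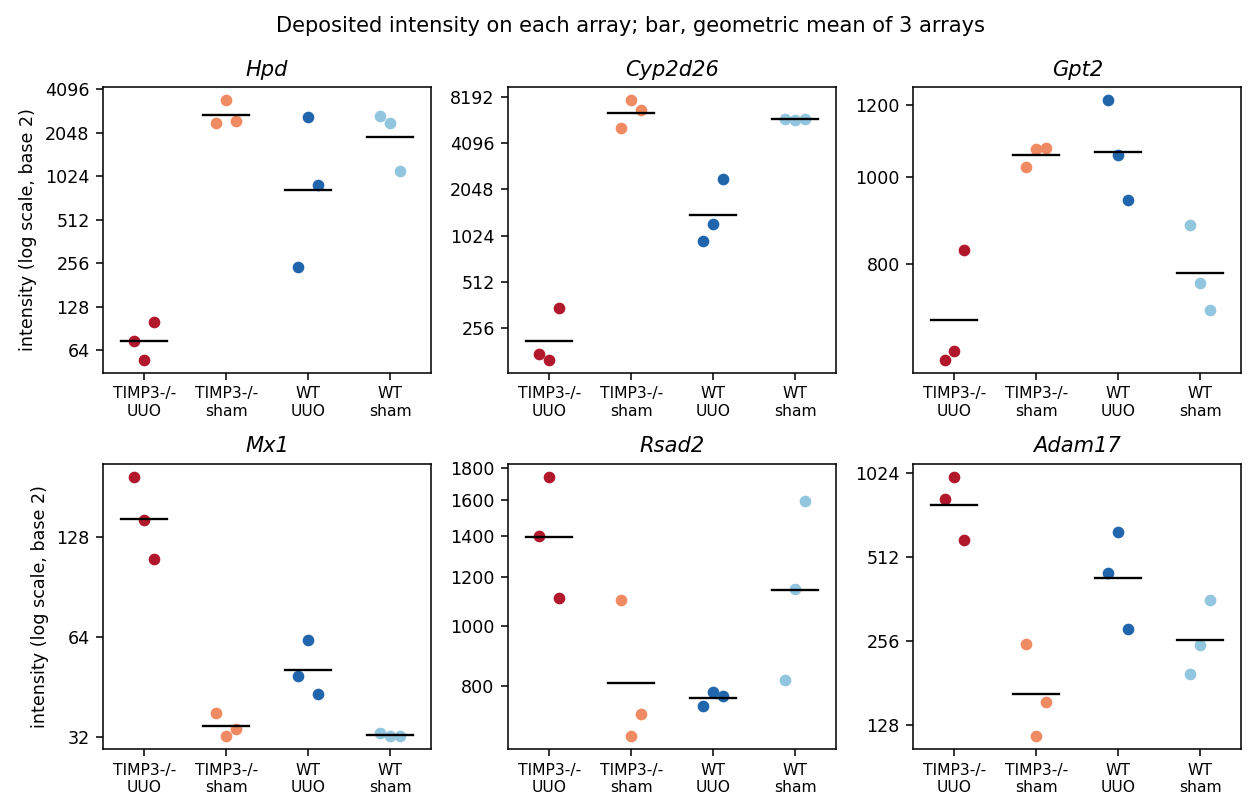
Deposited intensity of 6 genes on each of the 12 arrays, on a log axis of base 2, with a bar at the geometric mean of 3 arrays. Hpd and Cyp2d26 read below every WT UUO array on all TIMP3-/- UUO arrays, Mx1 above, and Gpt2 and Rsad2 have UUO and sham groups that separate in opposite directions in the 2 genotypes.

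Transport genes of the tubule had lower fitted responses in TIMP3-/- kidneys at several points along the nephron. The Slc22 family carries organic anions and cations across the proximal tubule, and 6 of its 12 measured genes had a negative difference at an unadjusted p under 0.05, with 0 positive, a median difference of −0.77 and a median response of −3.28 in TIMP3-/- and −2.14 in WT kidneys. Without WT UUO 2 it was 10 of 12, with a median of −1.27, and without TIMP3-/- UUO 2 it was 4 of 12, with a median of −0.65. Over all 12393 genes, 1933 (15.6%) were negative at that p with all arrays, 2667 without WT UUO 2 and 761 without TIMP3-/- UUO 2. Slc22a7, an organic anion transporter, read 75.4, 56.2 and 85.8 on TIMP3-/- UUO arrays and 5890, 7213 and 6855 on TIMP3-/- sham arrays, against 501.8, 232.6 and 2370 on WT UUO arrays and 7289, 8684 and 7608 on WT sham arrays. The UUO groups did not overlap, the WT UUO values spread widely, and the difference was −2.95 ± 0.82. Slc22a13, Slc22a19 and Slc22a18 had differences of −1.91 ± 0.63, −1.78 ± 0.57 and −1.56 ± 0.55. Leaving out WT UUO 3, the array with the highest Slc22 mean of its group, gave −2.02 for Slc22a7, −1.33 for Slc22a13, −1.14 for Slc22a19 and −1.01 for Slc22a18.

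Among 19 proximal tubule markers, 6 had a negative difference at an unadjusted p under 0.05 and 0 a positive one, with a median of −0.75. Without WT UUO 2 it was 16 of 19 with a median of −1.05, without the 3 arrays 15 of 19 with a median of −0.97, and without TIMP3-/- UUO 2 it was 4 of 19 with a median of −0.65. Over all 12393 genes, 2667 had a negative difference at an unadjusted p under 0.05 without WT UUO 2, 1205 without the 3 arrays and 761 without TIMP3-/- UUO 2, against 1933 with all arrays. The list shares Slc22a6 and Slc22a8 with the Slc22 list and Gatm with the catabolic list. Slc5a2, the glucose transporter SGLT2, had a difference of −1.59 ± 0.46, and read 864.5, 912.2 and 1386 on TIMP3-/- UUO arrays, against 3140, 1646 and 5079 on WT UUO arrays. Its sham arrays overlapped, at 9049 to 11964 in TIMP3-/- and 9134 to 10848 in WT kidneys. Fbp1 (fructose bisphosphatase of gluconeogenesis), Aqp1 (a water channel) and Hnf4a (a transcription factor of tubular epithelium) had differences of −1.06 ± 0.36, −0.96 ± 0.32 and −0.85 ± 0.29, the last −1.34 without suffixed probe sets. The list's mean log2 intensity overlapped between the UUO groups, at 11.06, 11.11 and 11.57 on TIMP3-/- arrays, against 11.96, 11.26 and 12.66 on WT arrays. WT UUO 2, the array with liver transcripts, lay within the TIMP3-/- range of this mean.

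Downstream of the proximal tubule, 5 of 20 genes of the loop, distal tubule and collecting duct had a negative difference at an unadjusted p under 0.05 and 0 a positive one. Of all genes, 15.6% were negative and 11.3% positive, and the list's median was −0.66. Without WT UUO 2, 11 of the 20 were negative at that p, with a median of −1.04. Without TIMP3-/- UUO 2 it was 2 of 20, with a median of −0.6. Over all 12393 genes, 2667 and 761 were negative in these 2 settings, against 1933 with all arrays. Egf, the growth factor made in the thick ascending limb and distal tubule, read 179.1, 247.6 and 348 on TIMP3-/- UUO arrays and 14921, 13382 and 13465 on TIMP3-/- sham arrays, against 2291, 405.4 and 4225 on WT UUO arrays and 14845, 17638 and 17270 on WT sham arrays. All TIMP3-/- UUO values lay below all WT UUO values. Its difference was −2.41 ± 0.83, and without WT UUO 2 it was −3.39 with an adjusted p of 0.0314 in limma, the 1 gene that passed in that setting. Aqp3, a collecting duct water channel, Avpr2, the vasopressin V2 receptor, and Slc26a4, the anion exchanger pendrin, had differences of −1.12 ± 0.36, −1.7 ± 0.73 and −0.94 ± 0.4.

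**Figure D4:**
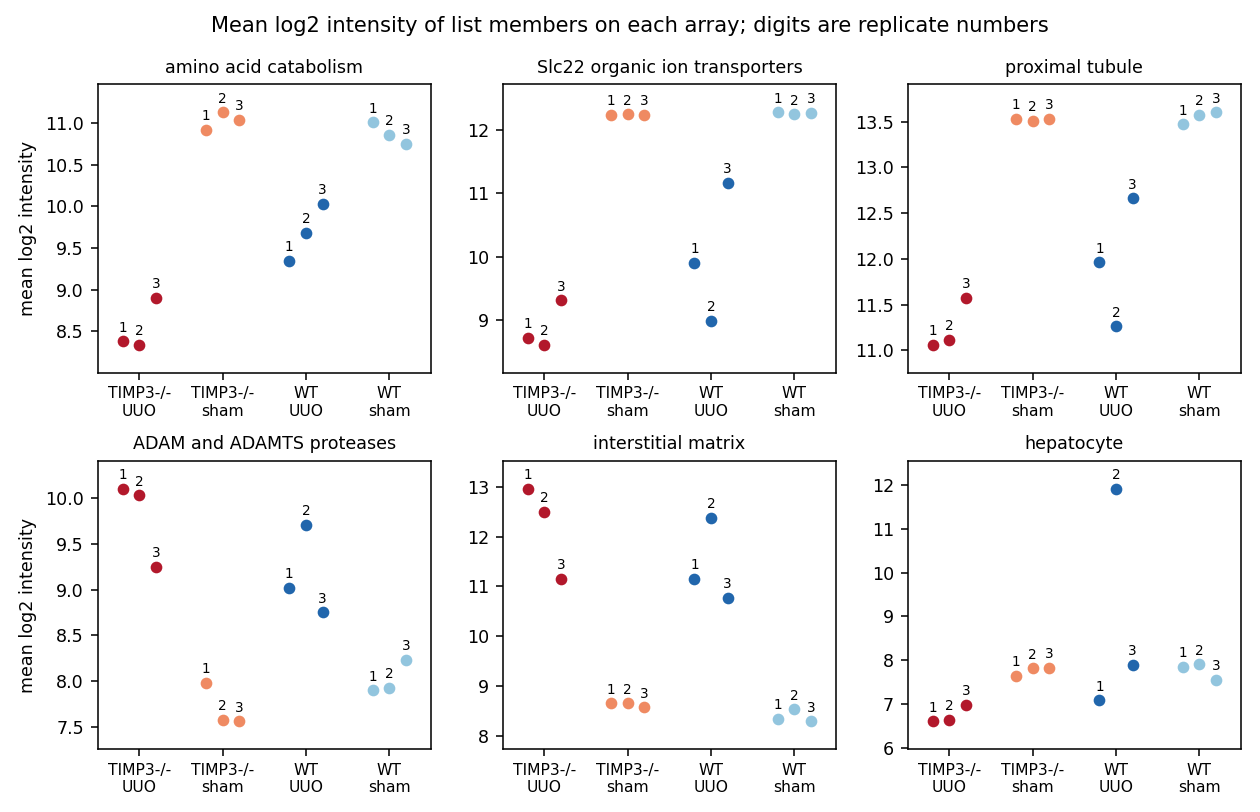
Mean log2 intensity of the measured genes of 6 lists on each array, with replicate numbers as digits. The catabolic list separates the UUO groups, at 8.38, 8.34 and 8.9 in TIMP3-/- and 9.35, 9.68 and 10.03 in WT kidneys, while the Slc22, proximal tubule and matrix lists overlap there, and the hepatocyte list stands out on WT UUO 2 alone.

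Energy metabolism had smaller differences of the same sign. For fatty acid oxidation and peroxisomes, 11 of 21 genes had a negative difference at an unadjusted p under 0.05 with 0 positive and a median of −0.5, among them Acaa1b (a peroxisomal thiolase, −1.24 ± 0.4), Acaa1a (−0.93 ± 0.31), Cpt2 (carnitine palmitoyltransferase, −0.8 ± 0.29) and Eci1 (−0.74 ± 0.25). For oxidative phosphorylation it was 8 of 24 with 0 positive and a median of −0.36, with Sdhb and Sdhd of complex II at −0.73 ± 0.28 and −0.6 ± 0.22, Ndufv1 of complex I at −0.7 ± 0.25 and Cox4i1 of complex IV at −0.43 ± 0.17. In all, 23 of these 24 had a negative estimate, against 65.7% of all genes. Without TIMP3-/- UUO 2, 6 of the 21 fatty acid oxidation genes and 2 of the 24 oxidative phosphorylation genes had a negative difference at an unadjusted p under 0.05. Over all 12393 genes, 761 did in that setting, against 1933 (15.6%) with all arrays. For gluconeogenesis and glycolysis it was 4 of 13 with a median of −0.35: Pcx (pyruvate carboxylase, −1.31 ± 0.42), Fbp1, G6pc (glucose-6-phosphatase, −1.53 ± 0.71) and Tpi1 (−0.53 ± 0.22). Antioxidant genes were mixed, with 2 of 17 negative and 1 positive, against 15.6% and 11.3% of all genes. The negative ones were Sod2 (−0.46 ± 0.2) and Sod1 (−0.38 ± 0.17), and the positive one was Gclc of glutathione synthesis (0.73 ± 0.28). The other probe set of Sod1 was at 0.74, and the mean of both gave 0.18, so that its direction turned.

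With all arrays, the inhibitors and the matrix metalloproteinases gave small or imprecise estimates. None of 5 measured genes of the TIMP family and Reck reached an unadjusted p under 0.05. Timp1, the inducible member, read 12814, 3457 and 3464 on TIMP3-/- UUO arrays and 128.6, 144.2 and 195.1 on TIMP3-/- sham arrays, against 2796, 10929 and 2287 on WT UUO arrays and 94.9, 94.5 and 68.5 on WT sham arrays. One array of each genotype was far above its replicates after UUO, and the difference was −0.47 ± 0.74. Timp2 differed by 0.15 ± 0.22 and Timp4, which read below the 25th percentile on all 12 arrays, by −0.19 ± 0.19. Of 14 matrix metalloproteinases, 1 had a positive difference at an unadjusted p under 0.05: Mmp12, the macrophage metalloelastase, at 1.61 ± 0.64. It read 911.8, 1048 and 402.6 on TIMP3-/- UUO arrays, against 116.8, 434.6 and 119.8 on WT UUO arrays, and the third TIMP3-/- value lay below the second WT value. Mmp2 (0.06 ± 0.52) and its activator Mmp14 (0.32 ± 0.56) had large errors. Mmp9, a gelatinase, read 1319 on TIMP3-/- UUO 1 and 1090 on WT UUO 2 and at most 147 on the other 4 UUO arrays of these genotypes, and its difference was 0 ± 1.18. The metalloproteinase median was −0.01 with all arrays, 0.29 without WT UUO 2 and 0.54 without the 3 arrays. In the last setting 2 of the 14 were positive at an unadjusted p under 0.05, against 750 of all 12393 genes. In the same 2 settings Timp1 was at 0.23 and 0.7, and Mmp2 at 0.48 and 0.62. Mmp14 was at 0.88 and 1.04, and Mmp9 at 1.1 and 1.54.

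The ADAM and ADAMTS proteases, which shed membrane proteins and cut proteoglycans, had the highest median of the lists apart from the 4 sex-linked genes. Of 11 measured, 5 had a positive difference at an unadjusted p under 0.05 and 0 a negative one, against 11.3% and 15.6% of all genes, and the median was 1.04 with a median response of 2.15 in TIMP3-/-, 1.42 in TIMP2-/- and 0.92 in WT kidneys. None of the 11 separated the UUO groups in either direction. Adam17, the TNF-converting enzyme, read 825, 989.1 and 589 on TIMP3-/- UUO arrays and 250.1, 116.5 and 154.1 on TIMP3-/- sham arrays, against 448.5, 626.7 and 283.2 on WT UUO arrays and 194.9, 246.9 and 357.8 on WT sham arrays. The difference was 1.51 ± 0.47, all 3 probe sets were positive, and without the 3 arrays it was 1.38. Adam10, a sheddase of Notch and EGF receptor ligands, read 1784, 4224 and 792.2 on TIMP3-/- UUO arrays and 529.3, 188.3 and 148.8 on TIMP3-/- sham arrays, against 991.5, 1300 and 655.6 on WT UUO arrays and 424.5, 541.7 and 1299 on WT sham arrays. Its highest values were on TIMP3-/- UUO 2 and, among shams, on WT sham 3. Malat1 was also highest on TIMP3-/- UUO 2. Among shams, Malat1 was highest on TIMP3-/- sham 1 (5399), where Adam10 read 529.3, and next on WT sham 3 (4410). The difference was 2.38 ± 0.96 and 1.53 without the 3 arrays. Adam9 and Adamts5 had differences of 1.7 ± 0.67 and 1.05 ± 0.42 (0.65 for Adamts5 as the mean of its probe sets), and Adam9 too was highest on TIMP3-/- UUO 2 (2641) and on WT sham 3 among shams (1619). Without the 3 arrays 5 of the 11 had a positive difference at an unadjusted p under 0.05 and the median was 0.9, and without TIMP3-/- UUO 2 alone it was 2 of 11 and 0.74. Over all 12393 genes, the positive count was 750 and 717 in these 2 settings, against 1397 with all arrays.

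Tnf, whose membrane protein ADAM17 cuts, read 122.5, 108.6 and 127.7 on TIMP3-/- UUO arrays and 139.7, 168.3 and 166.7 on TIMP3-/- sham arrays, against 126.7, 130.4 and 132.7 on WT UUO arrays and 121.7, 128.6 and 140 on WT sham arrays. The mRNA thus lay within a narrow range, and its difference was −0.4 ± 0.18. Among the 17 measured genes of TNF and NF-κB signalling, 3 had a negative difference at an unadjusted p under 0.05 and 0 a positive one, against 15.6% and 11.3% of all genes. The 3 were Tnf, Traf2, an adaptor of the TNF receptors (−0.73 ± 0.27), and Nfkbib, an inhibitor of NF-κB (−0.69 ± 0.32). The median of the 17 was −0.2, close to the −0.18 of all genes, and without the 3 arrays it was 0.04 with 0 genes at an unadjusted p under 0.05. Hbegf, a ligand shed by ADAM17, differed by −0.24 ± 0.32, Egfr, the receptor, by −0.5 ± 0.2, with 5 probe sets between −0.75 and 0.09 and the value 0.09 when suffixed probe sets were left out, and Erbb2 by −0.59 ± 0.31. Of the 9 EGF receptor ligands and receptors, Egf and Egfr were the 2 at an unadjusted p under 0.05.

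TGF-β drives matrix production in the obstructed kidney, and 5 of 16 measured pathway genes had a positive difference at an unadjusted p under 0.05 with 0 negative and a median of 0.33. Tgfb2, a ligand, read 512.3, 446.8 and 286 on TIMP3-/- UUO arrays and 86.9, 73 and 52 on TIMP3-/- sham arrays, against 208.5, 208.8 and 127.9 on WT UUO arrays and 70, 74.7 and 67.7 on WT sham arrays. The UUO groups did not overlap, and the difference was 1.22 ± 0.42. Inhba, the activin subunit, Skil, a repressor in the pathway, and Smad2, a signal transducer, had differences of 1.02 ± 0.38, 1.67 ± 0.64 and 0.67 ± 0.27, and Skil was at 0.85 as the mean of its probe sets. Tgfb1, the main ligand in fibrosis, had a difference of −0.44 ± 0.35. Leaving out TIMP3-/- UUO 2 left 1 of the 16 at an unadjusted p under 0.05, and leaving out all 3 arrays left 5. Over all 12393 genes, these settings left 717 and 750 with a positive difference, against 1397 (11.3%) with all arrays.

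Of 23 interstitial matrix genes, 16 had a positive and 7 a negative estimate, and 1 had a positive difference at an unadjusted p under 0.05 and 0 a negative one, at a median difference of 0.49 and a median response of 3.56 in TIMP3-/-, 2.23 in TIMP2-/- and 3.05 in WT kidneys. Without WT UUO 2 it was 7 of 23 with a median of 1.01, and without the 3 arrays 6 of 23 with a median of 0.95. Over all 12393 genes, 1617 and 750 were positive at that p in these 2 settings, against 1397 (11.3%) with all arrays. With all arrays the 1 matrix gene was Col12a1, at 0.96 ± 0.44, followed by Col5a2 at 1.25 ± 0.59, Col8a1 at 1.22 ± 0.58 and Thbs1 at 1.12 ± 0.6. Col1a1, the chain of type I collagen, read 19835, 11506 and 5862 on TIMP3-/- UUO arrays and 313, 376.6 and 351.6 on TIMP3-/- sham arrays, against 6035, 12625 and 4747 on WT UUO arrays and 215.6, 218 and 164 on WT sham arrays. The UUO groups overlapped, and the difference was −0.18 ± 0.53. Acta2, the smooth muscle actin of myofibroblasts, differed by −0.06 ± 0.43. Fibroblast and myofibroblast markers had 1 of 14 positive, Pdgfra, a receptor of interstitial fibroblasts, at 0.89 ± 0.33 (0.5 as the mean of its probe sets), and 4 of 14 without WT UUO 2. Smooth muscle genes had 2 of 14 positive, against 11.3% of all genes. These were Mylk, the myosin light chain kinase, at 0.57 ± 0.18 and Tpm1, a tropomyosin, at 0.59 ± 0.25. Without WT UUO 2 it was 5 of 14 smooth muscle genes with a median of 0.52, against 0.24 with all arrays. Without the 3 arrays it was also 5 of 14, with a median of 0.65. Of 13 matrix-processing genes, Plod2, a lysyl hydroxylase of collagen, was the 1 at an unadjusted p under 0.05 (1.98 ± 0.67), and Lox, a crosslinking enzyme, had 1.59 ± 0.98. The 3 probe sets of Lox lay between −0.16 and 2.16. Of the 13, 7 had a negative estimate, with a median of −0.1. Basement membrane genes had 1 of 20, Nid1 (nidogen), at 0.65 ± 0.3, and 8 of the 20 had a negative estimate.

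Interferon-induced genes gave mixed values. Of 18 measured, 5 had a positive difference at an unadjusted p under 0.05 and 0 a negative one, while the list's median was 0.06, which became −0.04 with median centring of the arrays and −0.03 with repeated quantile normalization. After UUO, 5 of the 18 were higher on every TIMP3-/- array than on every WT array, which was true of 913 of all genes (7.37%). Mx1, an antiviral GTPase, read 194.4, 144.5 and 109.8 on TIMP3-/- UUO arrays and 37.7, 32.1 and 33.9 on TIMP3-/- sham arrays, against 48.8, 62.8 and 43 on WT UUO arrays and 32.9, 32.2 and 32.2 on WT sham arrays. Its sham values lay below the 25th percentile of the arrays, so that its difference of 1.43 ± 0.25 rests mainly on the TIMP3-/- UUO arrays. Ifit1, an RNA-binding antiviral protein, read 361.9, 376.5 and 241.2 on TIMP3-/- UUO arrays and 79.5, 93.3 and 60 on TIMP3-/- sham arrays, against 204.8, 259.4 and 189.2 on WT UUO arrays and 131.7, 116.4 and 139.6 on WT sham arrays. The UUO groups overlapped, the TIMP3-/- shams lay below the WT shams, and the difference was 1.33 ± 0.34. Rsad2, the antiviral enzyme viperin, read 1398, 1743 and 1110 on TIMP3-/- UUO arrays and 1104, 664 and 722.1 on TIMP3-/- sham arrays, against 742.6, 782.1 and 771.5 on WT UUO arrays and 819.1, 1149 and 1593 on WT sham arrays. The TIMP3-/- UUO values were above and the WT UUO values below all shams of their genotype, and the difference was 1.37 ± 0.36. Ifit3 had a difference of 0.84 ± 0.3, whereas the immunoproteasome and interferon regulatory factor genes of the list lay between −0.68 (Psmb9) and −0.13 (Irf9). Without the 3 arrays 4 of the 18 had a positive difference at an unadjusted p under 0.05, against 750 of all 12393 genes.

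**Figure D5:**
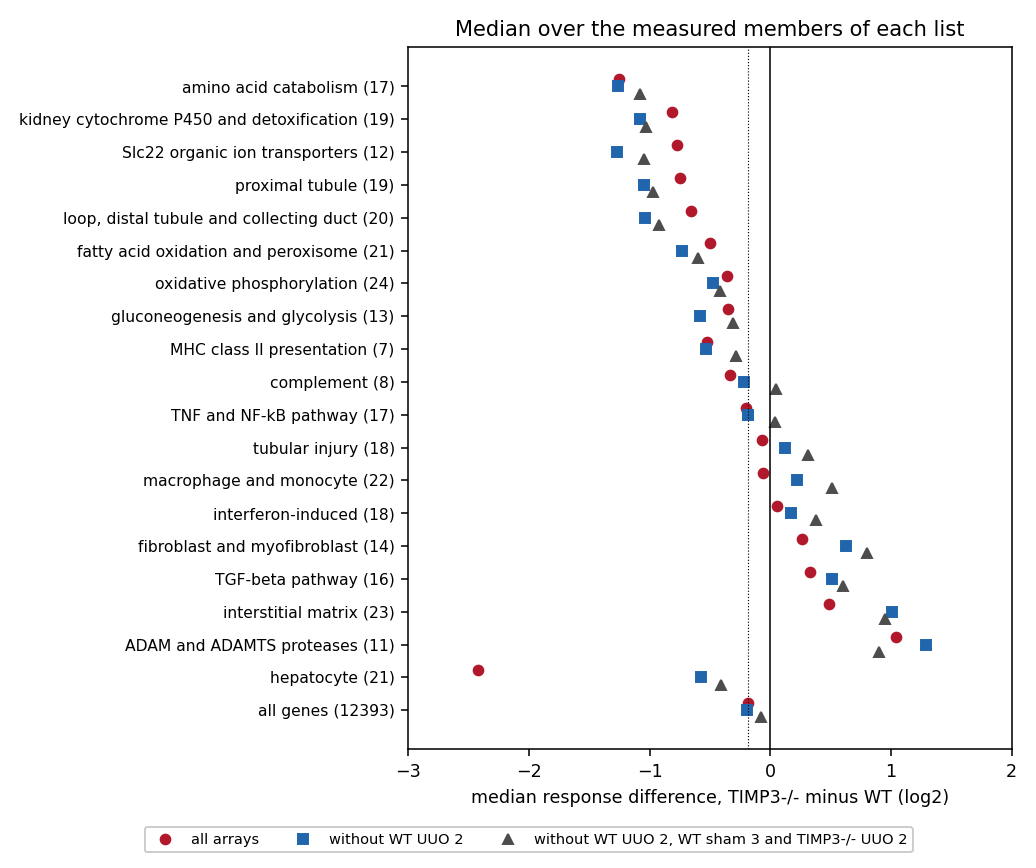
Median response difference, TIMP3-/- minus WT (x axis, log2), over the measured members (number in brackets) of 19 lists and over all genes, with all arrays, without WT UUO 2, and without 3 arrays. The dotted line is the median of all genes, −0.18, and the catabolic list lies at −1.25 and the ADAM list at 1.04 with all arrays. TNF and NF-κB pathway and complement medians are negative with all arrays and 0.04 and 0.05 without the 3 arrays, and tubular injury and macrophage medians change sign as well.

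Antigen presentation went the other way from the Mx1 and Ifit genes. All 7 measured MHC class II genes had a negative estimate, 3 of them at an unadjusted p under 0.05, with a median of −0.52 and a median response of 1.56 in TIMP3-/- and 2.08 in WT kidneys. Of all genes, 65.7% had a negative estimate, and 15.6% had one at that p. H2-Eb1, a class II chain, read 12645, 11848 and 16230 on TIMP3-/- UUO arrays and 3520, 4864 and 4423 on TIMP3-/- sham arrays, against 12535, 11052 and 10495 on WT UUO arrays and 2575, 2816 and 1874 on WT sham arrays. The UUO groups overlapped and the shams did not, the TIMP3-/- shams being higher, and the difference was −0.58 ± 0.25. The list as a whole differed between TIMP3-/- and WT kidneys by a median of 0.2 after UUO and 0.65 after sham. Ciita, the class II transactivator, and H2-Aa had differences of −0.56 ± 0.24 (−0.36 as the mean of its probe sets) and −0.47 ± 0.22, and 1 of the 7 had an unadjusted p under 0.05 without the 3 arrays and 0 without TIMP3-/- UUO 2 alone. Complement genes had 3 of 8 negative: Cfi (complement factor I, −0.88 ± 0.35), C2 (−0.74 ± 0.28) and Cfb (complement factor B, −0.5 ± 0.23), and 0 of 8 without the 3 arrays. The acute phase and IL-6 list had 1 of 18, the fibrinogen chain Fgb, made mainly in the liver, at −2.34 ± 1.06, and without WT UUO 2 it had 0 negative genes at an unadjusted p under 0.05. Its count with all arrays did not exceed the 15.6% of all genes. Over all 12393 genes, 1205 were negative at that p without the 3 arrays and 761 without TIMP3-/- UUO 2.

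Inflammatory cell markers and injury genes had medians between −0.16 and 0 with all arrays, and higher ones for most lists without the 3 arrays: 0.51 for macrophage genes, 0.49 for chemokines and cytokines, 0.41 for neutrophil genes, 0.31 for tubular injury and −0.04 for lymphocyte and NK cell genes, against −0.08 for all genes. In that setting 3 macrophage and 3 chemokine and cytokine genes had a positive difference at an unadjusted p under 0.05, and 1 chemokine or cytokine gene a negative one. Over all 12393 genes the counts were 750 positive and 1205 negative. Of 22 macrophage genes 1 had a positive difference at an unadjusted p under 0.05, Mrc1, the mannose receptor, at 1.5 ± 0.66, with a median of −0.06 for the list and a median response of 2.91 in TIMP3-/- and 3.17 in WT kidneys. Of 28 chemokine and cytokine genes 1 did, Il18 (0.74 ± 0.34), with a median of 0, and of 15 lymphocyte and NK cell genes Cd79b of B cells was negative (−0.7 ± 0.29). Neutrophil genes had 1 of 11, Camp, at −0.69 ± 0.23. The shares over all genes with all arrays were 11.3% positive and 15.6% negative. Of 18 tubular injury genes, Sox4, a transcription factor of injured epithelium, was the 1 at an unadjusted p under 0.05, at 1.28 ± 0.55 (0.55 as the mean of its probe sets). Havcr1, the injury marker KIM-1, read 6327, 8836 and 11423 on TIMP3-/- UUO arrays and 216.1, 193.9 and 211.9 on TIMP3-/- sham arrays, against 6175, 8439 and 4698 on WT UUO arrays and 139.2, 149.6 and 142.9 on WT sham arrays. The UUO groups overlapped, and its difference was −0.06 ± 0.29. Lcn2, the injury marker NGAL, read 4910, 9255 and 15144 on TIMP3-/- UUO arrays and 317.5, 288.7 and 244.7 on TIMP3-/- sham arrays, against 8735, 7198 and 11825 on WT UUO arrays and 126.8, 205.8 and 110.6 on WT sham arrays. The TIMP3-/- shams were above the WT shams, and the difference was −1.02 ± 0.48.

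Among 18 apoptosis genes, 5 had a positive difference at an unadjusted p under 0.05 and 2 a negative one, against 11.3% and 15.6% of all genes. Casp8, the initiator caspase of death receptors, was at 0.75 ± 0.23, Bcl2l11 (BIM) at 0.55 ± 0.22 (0.26 as the mean of its probe sets), Apaf1 of the apoptosome at 1.05 ± 0.45 (0.67 in the same way) and Bid, a substrate of caspase-8, at −0.57 ± 0.22. Without TIMP3-/- UUO 2 it was 2 positive and 0 negative of 18, against 717 and 761 of all 12393 genes. Cell cycle genes had 2 of 22 positive, Mcm4 of the replicative helicase (1.09 ± 0.35) and Top2a, a DNA topoisomerase (1.18 ± 0.54), and 1 negative, Ccnd1, cyclin D1 (−0.77 ± 0.26). Neither count exceeded the share of all genes, 11.3% positive and 15.6% negative. The direction of Top2a turned with the probe set, since its other one, used when suffixed probe sets were left out, gave −0.26. Without the 3 arrays, 5 of the 22 had a positive difference at an unadjusted p under 0.05 and 1 a negative one, against 750 and 1205 of all 12393 genes. The EMT list had 2 of 11 positive, the repressors Zeb2 (1.81 ± 0.63) and Zeb1 (1.07 ± 0.38, and 0.58 as the mean of its probe sets). Immediate early genes had 1 of 18, Klf6 (1.32 ± 0.48), endothelial genes 2 of 18, Ptprb (0.57 ± 0.23) and Tek (0.55 ± 0.22), and podocyte genes 1 of 11 in each direction, Cd2ap (2.05 ± 0.94) and Nphs1, nephrin (−0.64 ± 0.3). The immediate early, endothelial and podocyte counts did not exceed the shares of all genes. Cd2ap read 3291 on TIMP3-/- UUO 2, against 650.6 and 453.6 on the other TIMP3-/- UUO arrays.

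Markers of cells outside the kidney were counted as well. Of 21 hepatocyte genes, 7 had a negative difference at an unadjusted p under 0.05 and the median was −2.42, which became −0.57 without WT UUO 2, again with 7 negative genes, and without the 3 arrays −0.41 with 4. Ttr (transthyretin), for example, differed by −3.12 ± 0.86 and Apoc3 by −3.08 ± 0.85. Apart from WT UUO 2, the mean of the list was 6.6, 6.63 and 6.98 on TIMP3-/- UUO arrays and 7.64, 7.81 and 7.82 on TIMP3-/- sham arrays, against 7.08 and 7.89 on WT UUO arrays and 7.84, 7.9 and 7.54 on WT sham arrays. The hepatocyte list shared no gene with the catabolic list or the P450 and detoxification list, although it holds a P450 (Cyp3a11) and enzymes of amino acid breakdown (Tat and Tdo2) of its own, named here after their values were seen. On WT UUO 2 the mean of the catabolic list was 9.68, against 9.35 and 10.03 on its replicates. The P450 and detoxification mean was 10.19 on that array, against 10.56 and 11.41, and the Slc22 mean 8.99, against 9.9 and 11.17, so that these lists and the proximal tubule list were lowest on WT UUO 2 among the WT UUO arrays and the catabolic list was not. The part of the liver transcripts in the catabolic result was not tested beyond leaving out that array. Red cell genes had 2 of 4 negative, Alas2 (−1.25 ± 0.4) and Slc4a1 (−1.74 ± 0.8, and −1.1 as the mean of its probe sets), and Slc4a1 is also an anion exchanger of the collecting duct. Adrenal cortex (6 genes), skeletal muscle (11), adipocyte (8) and urothelial (10) markers had none at an unadjusted p under 0.05. The sex-linked list had 2 of 4 positive, Eif2s3y (2.55 ± 0.78) and Kdm5d (1.26 ± 0.42, and 0.38 as the mean of its probe sets), both Y-linked, with a list median of 0.56 without the 3 arrays.

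For 11 genes the 2 genotypes separated UUO from sham in opposite directions with no overlap of arrays. In 7 of them (0.0565% of all genes) every TIMP3-/- UUO array was below every TIMP3-/- sham array and every WT UUO array above every WT sham array: Gpt2, Oit3 (−0.6 ± 0.13), Dnajb1 (−0.44 ± 0.15), Cinp (−0.55 ± 0.2), Cst7, Cyp3a13 and Utp25. In 4 (0.0323%) the opposite held: Rsad2, Thumpd3 (0.79 ± 0.27), Wbp4 (0.76 ± 0.26) and Lcorl. These were chosen after their values were seen, except Rsad2. Dnajb1, a heat shock co-chaperone, read 1453, 1430 and 1672 on TIMP3-/- UUO arrays, against 1783, 1735 and 1716 on TIMP3-/- sham arrays. Its TIMP3-/- groups thus lay close together. Oit3 and Cst7 read below the 25th percentile on all 12 arrays, and Cyp3a13 and Lcorl did except on WT UUO 2 for Cyp3a13 (214.3) and on TIMP3-/- UUO 2 for Lcorl (138.4).

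Several genes on no list that ranked high with a positive difference were chosen after their values were seen. Ezh2, the histone methyltransferase of Polycomb, read 351.9, 460.3 and 277.9 on TIMP3-/- UUO arrays and 108.3, 64.1 and 72.1 on TIMP3-/- sham arrays, against 151.8, 222.8 and 116.8 on WT UUO arrays and 100, 96.7 and 167.6 on WT sham arrays. The UUO groups did not overlap, and its difference was 1.74 ± 0.41. Srsf5, a splicing factor, Sp100, a nuclear body protein, and Zfand5 had differences of 1.53 ± 0.39, 1.23 ± 0.3 and 1.38 ± 0.34, and Acbd3, Akap2 and Syne1 of 1.31 ± 0.33, 1.15 ± 0.28 and 0.86 ± 0.21, the last 0.51 as the mean of its probe sets. Malat1 itself had a difference of 2.48 ± 1.08, and of 1.51 without WT sham 3 and 1.33 without the 3 arrays. Klrb1b, an NK cell receptor, was at 0.94 ± 0.21 and Gsap at 1.42 ± 0.36, both with WT arrays below the 25th percentile. Defb35, at −0.74 ± 0.16, read below it on all 12 arrays.

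Setting TIMP3-/- against TIMP2-/- in place of WT used the same TIMP3-/- arrays, and the WT arrays entered through the shared estimate of the spread. Here 0 of 12393 genes (0%) passed, the smallest adjusted p was 0.0611, and 1345 genes (10.9%) had an unadjusted p under 0.05, 995 (8.03%) negative and 350 (2.82%) positive. Leaving out WT UUO 3 gave 19 genes that passed, and leaving out TIMP3-/- UUO 3 gave 208. The same kidney lists had negative values: 12 of 17 catabolic genes, 15 of 19 proximal tubule genes, 11 of 12 Slc22 genes and 11 of 19 P450 and detoxification genes had a negative difference at an unadjusted p under 0.05, with medians of −1.35, −1.15, −1.76 and −1.07. Gpt2 differed by −0.88, Cyp2d26 by −2.19, Dpys by −2.19 and Slc22a7 by −3.87 between the knockouts. Of the interferon-induced genes, 1 of 18 had a positive difference, Mx1 at 1.17, while Ifit1 was at 0.17 and Rsad2 at 0.18. ADAM and ADAMTS genes had 2 of 11 positive and a median of 0.74, and interstitial matrix genes 12 of 23 positive and a median of 1.46. Because both differences use the TIMP3-/- arrays, these values stand side by side and are not independent evidence.

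Leaving out TIMP3-/- UUO 3 was the 1 change of arrays after which more than 3 genes passed. With the other 17 arrays, 25 genes (0.202%) had an adjusted p under 0.05 in limma, 20 with a negative and 5 with a positive difference, and the smallest adjusted p was 0.0217. The negative ones included Alpl (alkaline phosphatase, −1.91 ± 0.25), Prodh2 (−2.2 ± 0.32), Gpt2 (−1.18 ± 0.17), Slc38a3 (−2 ± 0.32), Cyp2c23 (−1.99 ± 0.32), Cyp2d26 (−3.21 ± 0.53) and Ftcd of histidine breakdown (−2.15 ± 0.39). The 5 positive ones were Mx1 (1.63 ± 0.23), Gbp8 (2.05 ± 0.34), Cenpe, a kinetochore motor (1.98 ± 0.35), Ms4a4c (1.1 ± 0.2) and Dpt, dermatopontin of the matrix (1.68 ± 0.28). The Slc22 mean was 9.31 on the array left out and 8.72 and 8.61 on the other TIMP3-/- UUO arrays, against 9.9, 8.99 and 11.17 on the WT UUO arrays, so that it was above its replicates and within the WT UUO range. These genes were chosen after their values were seen, and the labels give no reason to leave that array out.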

How the data were processed

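Kidney RNA of 18 mice in 6 groups of 3 was measured on Affymetrix Mouse430A_2 arrays, per the labels' protocols. The deposited intensity values are on a linear scale, 1 per probe set and array, and RMA is named by the submitters' processing notes. The sources used here give neither its version nor the step that made the values linear. RMA commonly makes distributions nearly equal between arrays (medians here 201 to 247), which hides any shift that all transcripts share. Array number, 3 per group, limits the precision, and an exact permutation test of 3 against 3 cannot go below p = 0.1.

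The log2 of each deposited value was taken without adding a pseudocount (no value was missing). Of 22690 probe sets, 64 controls were left out. Of the other 22626, the platform annotation gave 20380 exactly 1 symbol, 691 several and 1555 none. The probe set with the highest mean stood for each of 12393 genes, 4956 of which had several. RefSeq (GRCm38.p6) matched 12377 genes and changed 0 symbols. No source used here names a genome build for the values, so only the RefSeq promoters have coordinates.

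With limma 3.58.1 in R 4.3.3, all 18 arrays entered a single linear model of 6 group means (12 residual and 3.28 prior degrees of freedom, tested on simulated data). P-values were adjusted over 22626 probe sets (Benjamini-Hochberg), with a threshold of 0.05. The responses within a genotype are given as fitted values and were not tested here. Lists numbered 42, with 603 of 667 distinct genes measured, and members and lists were chosen with earlier results of these data known. Genes named were a fixed set (the TIMP family, main proteases, TNF, TGF-β, fibrosis and injury markers), from each list described up to 4 with the smallest p, and those said to be chosen after their values were seen. List ranges are named by their end members. Alternatives were the arrays fitted, a replicate block, trended variance, array weights, how probe sets stand for genes, dim or suffixed probe sets, a floor, a pseudocount of 50, median centring, repeated quantile normalization and leaving out arrays. Figures used matplotlib 3.10.9.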

Additional observations from a re-analysis of the deposited data

Results flagged for a closer look

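The response differences of 2 named genes met the criterion of opposite, non-overlapping movement in the 2 genotypes. Gpt2, at −1.06, was lower after UUO than after sham on all TIMP3-/- arrays and higher on all WT arrays, and Rsad2, at 1.37, was higher on all TIMP3-/- and lower on all WT arrays. The difference itself was tested in both cases and did not pass (adjusted p of 0.167 in limma). Without TIMP3-/- UUO 3, Gpt2 was at −1.18 with an adjusted p of 0.023. Without WT sham 3, Rsad2 was at 1.13, and without the 3 arrays set apart at 0.98. No group of the design holds 4 or more arrays, so no array was tested for standing apart within its group.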

How the results depend on the processing

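The count of 0 genes that passed for the response difference between TIMP3-/- and WT also held with the 12 arrays alone, trended variance, the mean of all probe sets, 1 probe set per gene, without suffixed or dim probe sets, with a pseudocount of 50, median centring, repeated quantile normalization and without WT UUO 2, WT sham 3 and TIMP3-/- UUO 2. That last setting left 1955 genes at an unadjusted p under 0.05, against 3330, and the 12 arrays alone left 2466 (1202 negative, 1264 positive, against 1933 and 1397). With a floor at the 25th percentile 1 gene passed, Cxcr6, at 0.68. Leaving out 1 array gave between 0 and 25 genes that passed and between 1478 and 4979 at an unadjusted p under 0.05. WT UUO 1 left out gave 3 genes, Hpd, Ttr and Gnmt. Array weights gave 6008 genes that passed and 7058 at an unadjusted p under 0.05, with Mmp9 at 2.72 and Acta2 at 0.94. With equal weights Mmp9 was at 0 with all arrays, 1.1 without WT UUO 2 and 1.54 without the 3 arrays. Acta2 was at −0.06, 0.32 and 0.42 in the same order. The weights did not converge: WT UUO 1 had a weight of 66.3, against 0.298 and 0.391 for its replicates, so those counts rest on 1 array. Between TIMP3-/- and TIMP2-/-, 1 gene passed with the replicate block, with 1 probe set per gene, with the pseudocount and with repeated quantile normalization, in each case Timp2, the gene absent in TIMP2-/- mice. With the floor 2 passed, Timp2 and Cxcr6. Array weights gave 3581, and 5290 at an unadjusted p under 0.05. Leaving out 1 array gave 0 to 208 and 894 to 2702, with 208 and 2702 without TIMP3-/- UUO 3, 19 passing without WT UUO 3, and 894 without TIMP2-/- UUO 3. The cause of these changes was not tested. Replicate numbers did not pair the arrays: of 18 same-numbered pairs, 7 had deviations correlated above 0.1 (range −0.576 to 0.637), and 2 of 12 arrays correlated best with their own number. With the replicate block 0 genes passed between TIMP3-/- and WT and 3607 had an unadjusted p under 0.05. Median centring moved the median of all genes to −0.28, from −0.18. Of 5898 values of named genes, 72 changed sign without passing in either setting and 144 passed. Most of the 144 came from the array weights that did not converge. Probe sets near background, such as Mx1 in shams, limit what a difference can show.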
